A study of Homo sapiens with 14 samples.

Results

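Class A G protein-coupled receptors that are made without a cleaved signal peptide were followed through immunoprecipitations of the ER membrane protein complex (EMC). The set is a list of 39 receptor genes, looked up by symbol among the 19440 gene symbols counted. Of the 39, 30 had at least 20 footprint counts over the 14 libraries. A filter on low counts kept 20 of those 30 for testing, 10 were below the filter, and the other 9 receptors had fewer than 20 counts each. Of the 20 tested receptors, 17 also passed the filter on the inputs alone, and HRH1, ADORA1 and BDKRB2 passed only with the help of their IP libraries, so that part of their difference was fixed by the filter.

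The libraries are selective ribosome profiles of Flp-In T-REx 293 cells, a derivative of the human embryonic kidney line HEK293. One line was an EMC6 knockout expressing doxycycline-inducible 3Flag-EMC6, and the other lines expressed doxycycline-inducible 3Flag-EMC7 or 3Flag-EMC10, with no knockout named in their labels. All cells received doxycycline at 0.5 to 1.0 ng/mL for 72 h and were harvested in cycloheximide, which stalls ribosomes. Solubilized microsomes gave the input, and what bound to Flag beads gave the IP. The EMC6 and EMC7 lines each have n = 2 inputs and n = 2 IPs, and the EMC10 line has n = 3 inputs and n = 3 IPs. Each bait is represented by 1 engineered line, and an IP from cells without a tag was not analysed here.

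Class A receptors respond to amines, nucleotides, lipids, peptides, chemokines, light or odorants and pass the signal to heterotrimeric G proteins. Their amino terminus lies outside the cell, and in most of them no signal peptide is cleaved: the first membrane segment itself targets the ribosome to the endoplasmic reticulum (ER) and has to be placed with its amino terminus across the membrane. The EMC is an insertase of the ER membrane, and it is known to insert first segments of this kind. An IP of a tagged EMC subunit recovers ribosomes that were near the complex while making their protein. A higher share of footprints in IP than in input is the measure of that contact used here, and it does not measure the amount of protein made.

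Counts on genes ranged from 515302 to 3395114 per library, with the fewest in the EMC6 line. Counts outside genes were 9.28% to 12.5% of all in EMC6 libraries but 2.76% to 5.15% in EMC7 and EMC10 libraries, and their part in differences between lines was not tested. The message of each bait rose in its own IP, by log2 7.54 ± 0.25 for EMC6, 5.71 ± 0.28 for EMC7 and 7.31 ± 0.18 for EMC10. The inputs held footprints of VIM, NEFL and INA, known in HEK293 cells, and 33 counts of PAX2, whereas LHX1 was at 0 counts and NEFM at 1. Of the markers of other tissues, ALB, PTPRC, MYH6, INS and UMOD were at 0 in the inputs and HBB had 5 counts in all. Levels below are CPM, footprint counts scaled to a common library size with TMM, and changes are log2 of IP over input ± SE, with Benjamini-Hochberg adjusted p over 9458 genes from the quasi-likelihood test of edgeR.

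Footprints on these receptors were enriched in the EMC immunoprecipitates with every bait. Together the 39 receptors had 177 to 313 CPM in the inputs and 416 to 655 CPM in the IPs before TMM scaling, so the ranges did not overlap. Over the mean of the 3 lines, all 20 tested receptors rose at an adjusted p under 0.05, and none fell. In the same comparison 23.7% of all genes tested rose and 26.9% fell. The median change of the 20 receptors was 1.95, against -0.19 for all genes. The receptors lay between the 84.0th and the 100th percentile of all genes, with their median at the 93.6th. The top of that range is the fitted value of OR51E2, which had 0 counts in the EMC6 inputs. BDKRB2 lay at the 99.6th. With the 17 receptors that passed on inputs alone, 17 of 17 rose and the median was 1.83.

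Line by line, 15 of the 20 receptors rose with EMC6 as bait, where 17.6% of all genes rose and 9.27% fell. With EMC7 all 20 rose, against 20.4% of all genes that rose and 9.68% that fell. With EMC10 19 rose, against 19.9% that rose and 13.9% that fell. These counts include HRH1, ADORA1 and BDKRB2, which passed the filter only with their IPs. With the filter on inputs alone, 12 of 17 receptors rose with EMC6, 17 of 17 with EMC7 and 17 of 17 with EMC10. With library size alone 12 of the 20 rose with EMC6, and ADORA1, P2RY1 and PTGER4 were no longer called. Under that scaling 13 rose with EMC7 and 10 with EMC10 (10.6% and 8.04% of all genes), and the EMC10 median was 0.53. With TMM the median changes of the 20 receptors were 2.18, 2.08 and 1.64, and those of all genes were -0.12, -0.14 and -0.17. The 5 receptors that were not called with EMC6 were ADRA2C at 1.76 (adjusted p = 0.104), OPN3 at 1.49 (0.0865), TBXA2R at 1.28 (0.180), LPAR2 at 0.82 (0.317) and S1PR3 at 0.64 (0.553). The 1 receptor not called with EMC10 was HRH1, at 0.63 ± 0.88 (adjusted p = 0.627). With each IP paired to its own input in a replicate block, OPN3 was called with EMC6 as well, at 1.42 (adjusted p = 0.0269), which made 16 of 20. The lines shared an estimate of spread, although replicates differed most in the EMC6 line. With that line fitted alone, ADORA2B, BDKRB2, CXCR4, GPR161, GPR27, LPAR1, LPAR3, S1PR1, S1PR2 and S1PR5 were called. P2RY1 was not (1.41, adjusted p = 0.0800), nor were OPN3 and TBXA2R. ADORA1, HRH1, OR51E2 and PTGER4 were not tested in that fit.

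All IP libraries of a line lay above all its inputs, in each of the 3 lines, for 18 of the 20 receptors and for 17.4% of all genes tested. The exceptions were HRH1 in the EMC10 line and TBXA2R in the EMC6 line. ADORA1 and BDKRB2, which passed the filter only with their IPs, are among the 18. Some calls within a line rested on single libraries. Without EMC6 IP replicate 2, the deeper IP of that line, 10 of the 20 receptors were called there; ADORA1, HRH1, OR51E2, PTGER4 and S1PR5 were lost, and TBXA2R turned to -0.83 (adjusted p = 0.807). Without its input replicate 1, 12 were called, and ADORA1, P2RY1 and PTGER4 were lost. In the EMC7 line 16 were called without IP replicate 1 (ADORA1, ADRA2C, S1PR3 and S1PR5 were lost), 18 without IP replicate 2 (HRH1 and OPN3) and 18 without input replicate 1 (OPN3 and S1PR3). In the EMC10 line 18 were called without IP replicate 1 (S1PR3 was lost), 17 without IP replicate 2 (ADRA2C and OPN3) and 18 without IP replicate 3 (PTGER4). Over the mean of the 3 lines, 17 were called without EMC6 IP replicate 2, with ADRA2C at 1.31 (adjusted p = 0.164), S1PR3 at 0.89 (0.122) and TBXA2R at 0.99 (0.293).

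**Figure D1:**
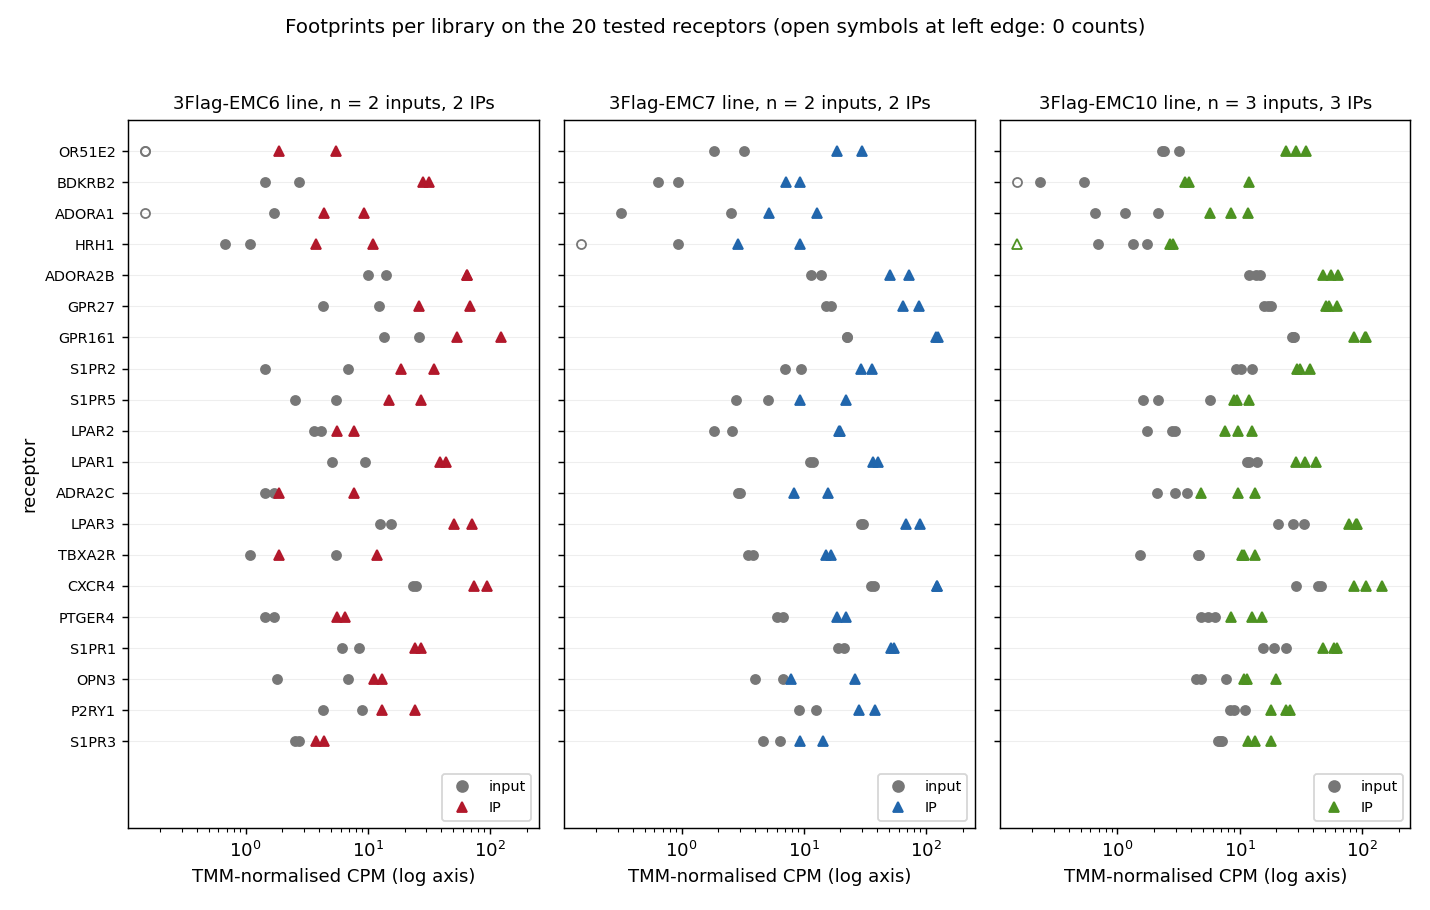
TMM-normalised CPM (log axis) of the 20 tested receptors in every library, 1 panel per line, with inputs as grey circles and IPs as coloured triangles; open symbols at the left edge are libraries with 0 counts. In 18 of the 20 rows the triangles lie to the right of all circles in each panel; HRH1 in the EMC10 line and TBXA2R in the EMC6 line are the exceptions.

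The receptors for adenosine and nucleotides signal through cyclic AMP or calcium, and all 3 tested ones rose over the mean of the lines. ADORA2B, the low-affinity adenosine receptor that raises cyclic AMP (chromosome 17, 15850362 to 15975746, GRCh38), had 10.1 and 14.0 CPM in the EMC6 inputs and 65.4 and 64.6 CPM in the EMC6 IPs. In the EMC7 line it had 11.4 and 13.8 CPM in input and 73.3 and 51.2 CPM in IP. In the EMC10 line it had 14.6, 11.9 and 13.7 CPM in input and 48.2, 56.4 and 64.0 CPM in IP. The lowest IP therefore lay well above the highest input, and the level hardly differed between the lines. Its mean change was 2.28 ± 0.14 (4.85-fold, adjusted p = 8.17e-17), higher in IP in 7 of 7 pairs of an IP with its input.

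ADORA1, the adenosine receptor that lowers cyclic AMP (chromosome 1, 203127726 to 203167405), rested on few counts. It stood at 0 and 1.71 CPM in the EMC6 inputs, 2.56 and 0.322 CPM in the EMC7 inputs, and 1.16, 0.660 and 2.14 CPM in the EMC10 inputs. Its IPs held 9.35 and 4.38 CPM with EMC6, 12.9 and 5.22 CPM with EMC7, and 8.43, 11.6 and 5.73 CPM with EMC10. Every IP thus exceeded every input, although the inputs of a line rest on 5 to 16 counts. The mean change was 2.68 ± 0.46 (adjusted p = 8.01e-06), and the change with EMC6, 2.77 ± 1.00, was not called without any one of EMC6 input replicate 1 (1.84, adjusted p = 0.182), IP replicate 1 (2.36, 0.183) or IP replicate 2 (3.33, 0.0689). The change with EMC7 was not called without EMC7 IP replicate 1 (1.66, 0.321).

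P2RY1, an ADP receptor that acts through calcium (chromosome 3, 152835131 to 152841439), had a smaller enrichment. It had 4.34 and 8.90 CPM in the EMC6 inputs and 24.3 and 13.1 CPM in the IPs of that line. The EMC7 line gave 9.07 and 12.5 CPM in input and 38.1 and 28.2 CPM in IP. The EMC10 line gave 9.04, 8.35 and 11.0 CPM in input and 24.1, 26.0 and 18.2 CPM in IP. The groups did not overlap within any line, and replicate 2 of the EMC6 line and replicate 3 of the EMC10 line showed the smallest gaps. The mean change was 1.44 ± 0.20 (2.71-fold, adjusted p = 1.87e-07). Its call with EMC6 was lost without EMC6 input replicate 1 (0.96, adjusted p = 0.147) or IP replicate 1 (1.09, 0.152).

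The aminergic receptors bind biogenic amines such as adrenaline, histamine and serotonin, and HRH1 and ADRA2C were tested. HRH1, the histamine receptor of allergic responses that acts through calcium (chromosome 3, 11137238 to 11263557), also had few counts. The EMC6 inputs held 1.08 and 0.684 CPM and the IPs 3.74 and 11.0 CPM, from 5 and 12 counts in all. The EMC7 inputs held 0.931 and 0 CPM and the IPs 2.88 and 9.40 CPM. The EMC10 inputs held 0.695, 1.76 and 1.34 CPM and the IPs 0, 2.69 and 2.87 CPM, so that the groups overlapped in this line, where IP replicate 1 had no count. Its mean change of 2.35 ± 0.55 (adjusted p = 0.000480) was higher in IP in 6 of 7 pairs. The change with EMC7, 3.27, was not called without EMC7 IP replicate 2 (2.31, adjusted p = 0.211). ADRA2C, an adrenergic receptor that lowers cyclic AMP, had a mean change of 1.83 ± 0.36 (adjusted p = 5.44e-05), or 1.31 without EMC6 IP replicate 2 (0.164). Its IP-minus-input differences ranged from 0.24 in replicate 1 of the EMC6 line to 2.1 in replicate 1 of the EMC7 line.

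The lysophospholipid receptors formed the largest tested group: 7 of the 8 listed had 20 or more counts, all 7 were tested and all 7 rose over the mean of the lines, with a median of 1.91. S1PR1, S1PR2, S1PR3 and S1PR5 bind sphingosine 1-phosphate, and LPAR1, LPAR2 and LPAR3 bind lysophosphatidic acid. S1PR2 changed by 2.11 ± 0.20, S1PR5 by 2.07 ± 0.29, LPAR1 by 1.91 ± 0.16 and LPAR3 by 1.74 ± 0.13 (adjusted p = 3.64e-11, 2.34e-07, 6.32e-13 and 7.61e-14). LPAR3 stood at 12.7 to 33.9 CPM over the 7 inputs and 50.5 to 91.4 CPM over the 7 IPs, and the ranges did not overlap.

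S1PR1, the receptor that guides lymphocyte exit and vessel maturation (chromosome 1, 101236899 to 101242313), differed in level between the lines but less in its enrichment. The EMC6 line gave 6.15 and 8.55 CPM in input and 24.3 and 27.4 CPM in IP. The EMC7 line gave 19.1 and 21.2 CPM in input and 54.6 and 52.2 CPM in IP. The EMC10 line gave 19, 15.4 and 24.1 CPM in input and 62.6, 48.4 and 59.2 CPM in IP. Both fractions were lower in the EMC6 line than in the other lines, and IP exceeded input in all 3. The changes were 1.82 ± 0.36 with EMC6, 1.41 ± 0.23 with EMC7 and 1.54 ± 0.19 with EMC10, and the mean was 1.59 ± 0.16 (adjusted p = 7.48e-11).

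S1PR3, which couples to several G proteins (chromosome 9, 88990863 to 89005155), had the smallest mean change of the 20. Its CPM were 2.53 and 2.74 in input against 3.74 and 4.38 in IP for EMC6, where the gap was narrow. They were 4.65 and 6.43 against 14.4 and 9.40 for EMC7. They were 6.95, 6.60 and 7.23 against 18.1, 11.6 and 13.4 for EMC10, so that IP lay above input in every line. The mean change was 0.94 ± 0.30 (1.92-fold, adjusted p = 0.00844). It stood at 0.44 with scaling on ER luminal proteins (adjusted p = 0.166) and at -0.0048 with library size alone (adjusted p = 0.999), and was not called under either. Without EMC6 IP replicate 2 it was 0.89 (adjusted p = 0.122).

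LPAR2, which acts through several G proteins, had unlike estimates with the 3 baits. Its inputs held 3.62 and 4.11 CPM in the EMC6 line, 1.86 and 2.57 CPM in the EMC7 line, and 2.78, 1.76 and 2.95 CPM in the EMC10 line. Its IPs held 5.61 and 7.67 CPM with EMC6, 19.4 and 19.8 CPM with EMC7, and 9.64, 12.5 and 7.64 CPM with EMC10. On average the input was thus highest and the IP lowest in the EMC6 line. The changes were 0.82 ± 0.58, 3.15 ± 0.41 and 2.00 ± 0.40, and the mean was 1.99 ± 0.29 (adjusted p = 4.58e-07).

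Prostanoid receptors bind lipid mediators made by cyclooxygenases. PTGER4, a prostaglandin E2 receptor that raises cyclic AMP (chromosome 5, 40679915 to 40746800, overlapped by TTC33), was lowest in the EMC6 line, at 1.45 and 1.71 CPM in input and 5.61 and 6.57 CPM in IP. The EMC7 line gave 6.05 and 6.76 CPM in input and 22.3 and 18.8 CPM in IP. The EMC10 line gave 6.26, 5.50 and 4.82 CPM in input and 8.43, 12.5 and 15.3 CPM in IP, with no overlap between the fractions. The mean change was 1.59 ± 0.28 (adjusted p = 1.10e-05). PTGER4 was not called with EMC6 without EMC6 input replicate 1 (1.83, adjusted p = 0.112) or IP replicate 2 (1.78, 0.317), nor with EMC10 without EMC10 IP replicate 3 (0.95, 0.0637). TBXA2R, the thromboxane receptor of platelet aggregation, had a mean change of 1.70 ± 0.33 (adjusted p = 4.99e-05), or 0.99 without EMC6 IP replicate 2 (0.293).

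Of the peptide and chemokine receptors, BDKRB2 and CXCR4 were tested and both rose over the mean of the lines. BDKRB2, the bradykinin receptor that lowers vascular tone and mediates pain (chromosome 14, 96204839 to 96244164), held 1.45 and 2.74 CPM in the EMC6 inputs and 31.8 and 28.5 CPM in the EMC6 IPs. The EMC7 line gave 0.931 and 0.643 CPM in input and 7.19 and 9.40 CPM in IP. The EMC10 line gave 0.232, 0 and 0.536 CPM in input and 12.0, 3.58 and 3.82 CPM in IP. Both fractions were highest in the EMC6 line, and IP exceeded input by a wide gap in all 3 lines. The mean change was 3.81 ± 0.38 (adjusted p = 1.04e-10), which placed it above 99.6% of genes. The EMC10 inputs hold only 3 counts, and there the pooled ratio of IP to input was 25.2, with an exact 95% interval of 7.37 to 134 that covers counting error only.

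CXCR4, the receptor for the chemokine CXCL12 that directs cell migration, was well covered. It ranged from 23.3 to 46.6 CPM over the 7 inputs and from 73.4 to 146 CPM over the 7 IPs, without overlap. Its changes were alike in size, at 1.78 ± 0.27 with EMC6, 1.77 ± 0.22 with EMC7 and 1.53 ± 0.18 with EMC10, and the mean was 1.69 ± 0.13 (adjusted p = 8.97e-14).

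The orphan receptors, which have no agreed natural ligand, included GPR161 and GPR27. GPR161, a receptor of primary cilia that restrains Hedgehog signalling, ranged from 13.7 to 27.7 CPM in input and from 54.2 to 126 CPM in IP. GPR27 (overlapped by EIF4E3) ranged from 4.34 to 17.9 CPM in input and from 26.2 to 87.0 CPM in IP. Neither pair of ranges overlapped. The mean changes were 2.18 ± 0.14 for GPR161 and 2.2 ± 0.17 for GPR27 (adjusted p = 1.46e-15 and 1.14e-12).

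The sensory-type receptors gave the largest fitted mean change, that of OR51E2, and 1 of the smallest. OR51E2, an odorant receptor that is also made outside the nose (chromosome 11, 4680171 to 4697853), had 0 counts in both EMC6 inputs and 1.87 and 5.48 CPM, or 6 counts in all, in the EMC6 IPs. The EMC7 line gave 1.86 and 3.22 CPM in input and 30.2 and 18.8 CPM in IP. The EMC10 line gave 2.32, 2.42 and 3.21 CPM in input and 24.1, 34.9 and 28.7 CPM in IP. The fractions stood wide apart in the EMC7 and EMC10 lines. The EMC6 line was the lowest in both fractions, and its IP replicate 1 held 1 footprint. In that line OR51E2 was at least 6.96-fold higher in IP by mean CPM, taking 3 counts over both inputs as the floor, a log2 bound of 2.80. The exact 95% counting interval of the pooled ratio began at 4.63. Its change was 3.34 ± 0.40 with EMC7 and 3.47 ± 0.31 with EMC10 (adjusted p = 1.11e-08 and 1.58e-11). With the bound in place of the fitted EMC6 value the mean over the 3 lines was 3.20, below the 3.81 of BDKRB2. The medians of the 20 receptors were then the same to 2 decimals. The EMC6 call was lost without EMC6 IP replicate 2 (adjusted p = 0.173).

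OPN3, an opsin of tissues other than the eye (chromosome 1, 241593124 to 241640369, overlapped by CHML and KMO), varied more between replicates. The EMC6 line gave 1.81 and 6.84 CPM in input and 11.2 and 13.1 CPM in IP. The EMC7 line gave 3.96 and 6.76 CPM in input and 7.91 and 26.1 CPM in IP. The EMC10 line gave 4.40, 4.84 and 7.77 CPM in input and 10.8, 19.7 and 11.5 CPM in IP. IP lay above input in each line, but the highest input and the lowest IP were close in the EMC7 line. The mean change was 1.48 ± 0.31 (adjusted p = 0.000192), and 0.53 with library size alone (adjusted p = 0.0954). With EMC7 it was not called without input replicate 1 (1.21, adjusted p = 0.132) or IP replicate 2 (0.60, 0.566), and with EMC10 without IP replicate 2 (1.00, 0.172). The sources used here do not give how overlapping genes and strand were handled, and the counts of OPN3, PTGER4 and GPR27 may include reads of their neighbours.

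**Figure D2:**
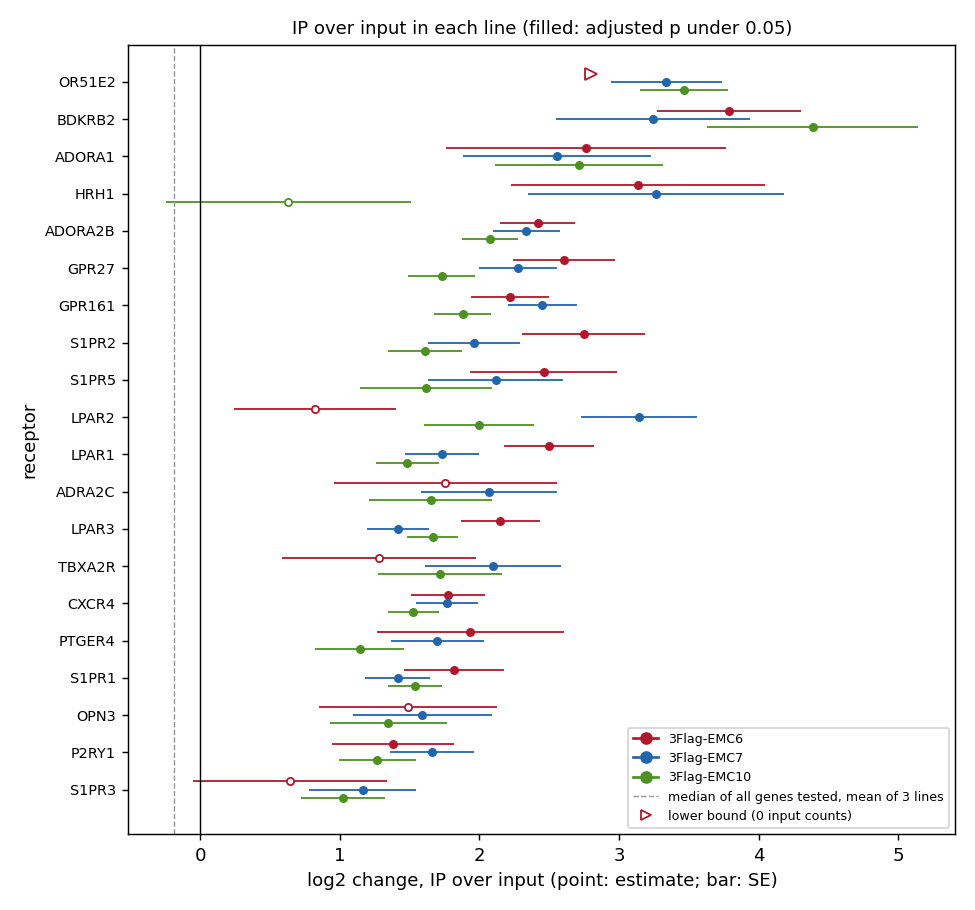
Log2 change of IP over input in each line for the 20 tested receptors, ordered by the mean of the 3 lines, with the estimate as a point and the SE as a bar; filled points passed an adjusted p under 0.05, the open arrow is the lower bound of OR51E2 with EMC6, and the dashed line is the median of all genes (-0.19). All points lie right of 0, and the open ones are 5 receptors with EMC6 and HRH1 with EMC10.

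The 10 receptors with 20 or more counts that were below the filter were tested only when that filter was set at 20 counts in total, which tested 11527 genes, of which 19.9% rose over the mean of the lines. There 27 of the 30 receptors rose, and 24 of the 26 that held 20 or more counts in the inputs alone. P2RY11, ADRB1, HTR1D and CHRM4 had fewer than that in the inputs and passed only with their IPs, so that part of any difference was fixed by the filter. Of the 10, those called were P2RY11 (an ATP receptor) at 3.02 ± 0.59, ADRB1 (the adrenaline receptor that drives heart rate) at 2.42 ± 0.73, PTGER2 (a prostaglandin E2 receptor) at 2.06 ± 0.43, HTR1D (a serotonin receptor) at 2.02 ± 0.68, GPR3 at 1.88 ± 0.74, ADORA2A (an adenosine receptor) at 1.57 ± 0.53 and GPR85 at 1.21 ± 0.42. The other 3 were not called: GPR19 at 1.33 (adjusted p = 0.0865), SSTR2 (a somatostatin receptor) at 1.12 (0.0671) and CHRM4 (a muscarinic receptor), with 15 counts in all inputs and 9 in all IPs (0.782). P2RY11 shares its stretch of chromosome 19 with EIF3G, PPAN and PPAN-P2RY11, and CHRM4 shares its own with MDK. The receptors under 20 counts were HRH2 (2 counts), CHRM3 (4), P2RY2 (18), LPAR6 (2), MC1R (1), ACKR3 (3), OXTR (6), GPR12 (7) and NPY1R (0), and no change was computed for them.

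The enrichment was compared between the baits, which asks whether ribosomes making a receptor were held differently by EMC6, EMC7 and EMC10. No receptor of the 20 passed the test of that difference by edgeR: 0 for EMC6 against EMC7, where 0.518% of all genes were called, 0 for EMC6 against EMC10 (0.074% of all genes) and 0 for EMC7 against EMC10 (0.159%). At an unadjusted p under 0.05 there were 2, 2 and 1, namely LPAR2 and LPAR3, LPAR1 and S1PR2, and HRH1. Of all genes, 8.96%, 6.24% and 6.57% had such a p, so these numbers are near the background. The lowest adjusted p was 0.113, for LPAR2, whose change with EMC6 was lower than with EMC7 by 2.32 ± 0.69 on the log2 scale. DESeq2 called 0 in each comparison, but gave no adjusted p for 19, 20 and 18 of the 20 receptors. Without EMC6 input replicate 2, S1PR2 was called for EMC6 against EMC7 (2.44, adjusted p = 0.0460) and for EMC6 against EMC10 (2.76, 0.0165), as were GPR27 (1.95, 0.0202) and LPAR1 (1.68, 0.0398) for the latter. With library size alone LPAR1 was called for EMC6 against EMC10 (1.42, adjusted p = 0.0286). The baits were not made at like levels. In raw input counts EMC7 had 14436 and 18114 in its own line and 979 to 1356 in the EMC10 line. EMC10 had 9790 to 11430 in its own line and 1017 and 1136 in the EMC7 line. EMC6 had 51 and 85 in its own line, which had the fewest counts, and 88 to 133 in the other lines. The part of bait level in these comparisons was not tested.

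In the order of fitted mean changes OR51E2 and BDKRB2 came first and S1PR3 last. Between them the estimates fell from 2.68 for ADORA1 to 1.44 for P2RY1 in small steps. The neighbours in that stretch differed by less than their SEs. With its EMC6 bound in place, OR51E2 (3.20) came after BDKRB2 (3.81). Differences between receptors were not tested.

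Receptors that do carry a signal peptide were the nearest comparison, since they share the bundle of membrane segments but not the way into the ER. That list held 67 receptors: the Frizzled and SMO family, adhesion receptors, secretin-type and glutamate-type receptors, and a few class A receptors. All 33 of them that were tested rose over the mean of the lines as well, against 23.7% of all genes, with a median of 1.39. With library size alone 18 of the 33 rose, and 18 of the 20 without a signal peptide, against 12% of all genes. FZD9 (2.86 ± 0.17) and FZD5 (2.45 ± 0.11), receptors for Wnt proteins, and ADGRB1 (2.43 ± 0.20), an adhesion receptor, had the largest changes. Of the 20 class A receptors without a signal peptide, 19 lay above the median of that list, and 5 of its 33 receptors lay above the median of the 20. Within each of the 7 pairs of IP and input, the median of the receptors without a signal peptide exceeded that of the receptors with one, by 0.20 to 0.63. HRH1, ADORA1 and BDKRB2, which passed the filter only with their IPs, are among the 20 in these comparisons. With the filter on inputs alone the medians were 1.83 for 17 receptors without a signal peptide and 1.38 for 34 with one. Among the 20, input CPM and mean change had a Spearman rho of -0.418, or -0.218 without OR51E2 and BDKRB2. Of receptors with 20 or more counts, 20 of 30 without a signal peptide and 33 of 37 with one were tested. These are descriptions, and neither the difference between the lists nor the part of level in it was tested.

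Class A receptors with a signal peptide, a subset taken after its values were seen, were the closest relatives. Of 14 listed, 6 were tested: F2RL1 at 1.52 ± 0.11 and F2R at 0.97 ± 0.12, which are cleaved by proteases, GPR37 at 1.48 ± 0.12, the endothelin receptor EDNRA at 1.26 ± 0.16, and the R-spondin receptors LGR5 at 1.25 ± 0.10 and LGR4 at 1.09 ± 0.11. All 6 rose. Of the 20 receptors without a signal peptide, 17 had a larger mean change than the highest of these 6, and OPN3, P2RY1 and S1PR3 did not. Those above include HRH1, ADORA1 and BDKRB2, which passed the filter only with their IPs.

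**Figure D3:**
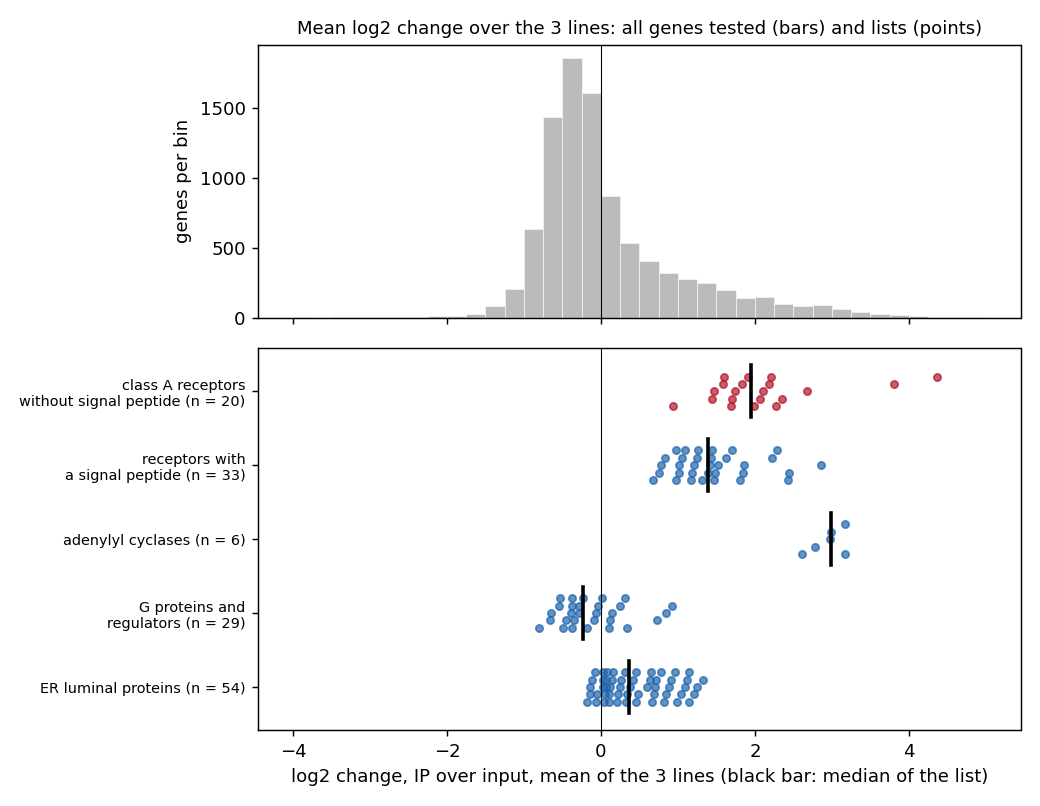
Top, number of genes per bin of 0.25 in the mean log2 change over the 3 lines, for all genes tested; bottom, the tested members of 5 lists as points, with the list median as a black bar. The receptors without a signal peptide (median 1.95) lie to the right of those with one (1.39) and left of the adenylyl cyclases (2.98); with library size alone the 5 medians shift to 1.00, 0.44, 2.03, -1.18 for G proteins and regulators and -0.59 for ER luminal proteins.

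The partners of these receptors in signalling differed by kind, in a comparison where 23.7% of all genes rose and 26.9% fell. The adenylyl cyclases, multi-pass enzymes that make cyclic AMP, rose in 6 of 6 tested members of 9 listed, with a median of 2.98, and ADCY7 (3.17 ± 0.16), ADCY1 (3.17 ± 0.20) and ADCY3 (2.99 ± 0.11) led. Only OR51E2, BDKRB2 and ADORA1 of the 20 receptors lay above the lowest cyclase, ADCY5 at 2.61. BDKRB2 and ADORA1 passed the filter only with their IPs, and OR51E2 stood at 3.20 with its EMC6 bound. The G proteins and their regulators, cytosolic or lipid-anchored, had 29 tested members of 48 listed: 4 rose, 1 fell and 24 were not called, with a median of -0.24. GNAI2 (0.92 ± 0.13), GNG10 (0.84 ± 0.33) and GNAL (0.73 ± 0.26) rose. The list median stayed near that of all genes under other scalings. It was -0.74 against -0.69 with scaling on ER luminal proteins, and -1.18 against -1.13 with library size alone. With library size alone none of the 29 rose, against 12% of all genes. ER luminal proteins, soluble residents made with a signal peptide, rose in 30 of 54 with a median of 0.36. With library size alone 5 of 54 rose, against 12% of all genes, and the median was -0.59, against -1.13 for all genes. Scaling on the list itself fixes its level beforehand, so calls under it are not given.

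Scaling set the level of all these changes and left their spacing. Over the mean of the lines the all-gene median moved from -0.19 with TMM to -0.69 with scaling on ER luminal proteins and -1.13 with library size alone. Library size alone counts the bait's own message. Its share of IP counts was 0.431% to 0.449% with EMC6, 14.4% to 15.0% with EMC7 and 24.6% to 26.1% with EMC10. From TMM to library size alone the all-gene median moved from -0.12 to -0.83 with EMC6, -0.14 to -1.15 with EMC7 and -0.17 to -1.28 with EMC10. The part of the bait's message in these shifts was not tested. Over the mean of the lines the receptor median stood above the median of all genes by 2.13 to 2.14 under these 3 scalings. The number of the 20 receptors that rose over the mean was 20, 19 and 18, against 23.7%, 16.9% and 12% of all genes.

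**Figure D4:**
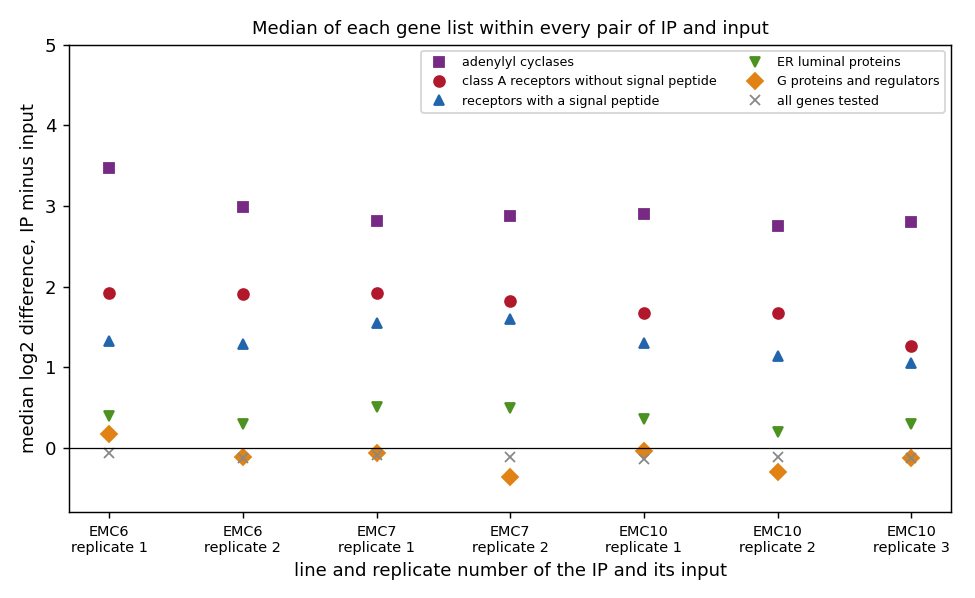
Median log2 difference of IP minus input within each of the 7 pairs (line and replicate), for the class A receptors without a signal peptide, 4 other lists and all genes tested. The receptors (1.26 to 1.92) lie below the adenylyl cyclases (2.76 to 3.47) and above the receptors with a signal peptide (1.06 to 1.6) in every pair.

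The inputs show how much of each receptor was being made on microsomes before the IP, and those of the EMC6 knockout line that re-expresses EMC6 were compared with the mean of the others. Of the 20 receptors 9 were lower and 1 was higher in the EMC6 inputs, where 21.8% of all genes were lower and 15.3% were higher. PTGER4 was lower by 1.87 ± 0.42 on the log2 scale (adjusted p = 0.000507), S1PR1 by 1.41 ± 0.25, S1PR3 by 1.20 ± 0.37, S1PR2 by 1.16 ± 0.36 and LPAR3 by 1.02 ± 0.22. GPR27, LPAR1 and CXCR4 were lower by 0.95, 0.69 and 0.66. OR51E2 had 0 counts in the EMC6 inputs against 51 in the 5 other inputs, at least 4.94-fold lower with 3 counts as the floor. BDKRB2 was higher by 2.11 ± 0.69 (4.30-fold, adjusted p = 0.0154). In these bulk libraries, fewer cells making a receptor and fewer footprints per cell cannot be told apart.

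Of the other ER-made proteins, the luminal ones and the receptors with a signal peptide moved with the receptors in this comparison. Of 54 ER luminal proteins 51 were lower in the EMC6 inputs, with a median of -1.02, and of 33 receptors with a signal peptide 21 were lower. The adenylyl cyclases did so less: 2 of 6 were lower and 4 were not called, with a median of -0.43. With scaling on the ER luminal list, which put the median of all genes at 1.20, only OR51E2 among the 20 was called lower, against 1.67% of all genes. BDKRB2, LPAR2, S1PR5, ADORA2B and GPR161 were called higher under that scaling, which called 77.6% of all genes higher. Without EMC6 input replicate 1, GPR27, LPAR1, S1PR2 and S1PR3 were not called, and 6 receptors were. Without EMC6 input replicate 2, BDKRB2 was not called (1.53, adjusted p = 0.255), nor was S1PR3, and GPR161 and P2RY1 were called lower. LPAR1 was not called without EMC7 input replicate 1 or EMC10 input replicate 3. The EMC6 line also differs from the others as a cell line, in depth and in its share of counts outside genes, so the knockout background and these cannot be told apart.

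**Figure D5:**
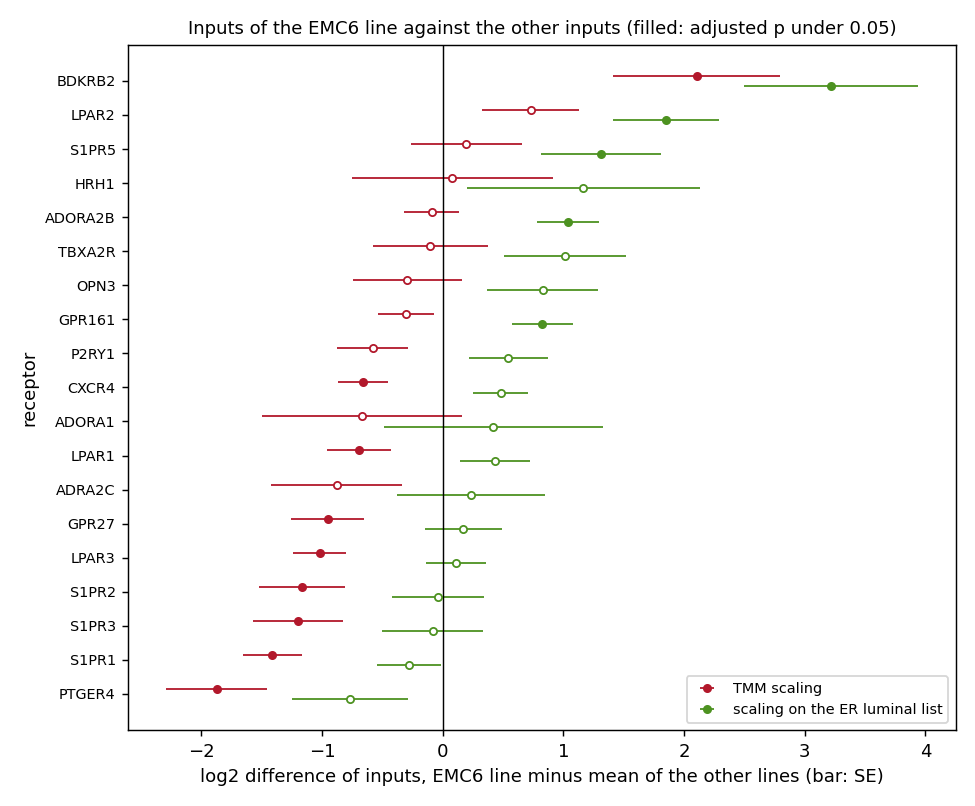
Log2 difference between the inputs of the EMC6 line and the mean of the other inputs for 19 tested receptors (OR51E2, with 0 counts in the EMC6 inputs, is left out), with the SE as a bar, under TMM scaling (red) and under scaling on ER luminal proteins (green); filled points passed an adjusted p under 0.05. The green points lie to the right of the red ones throughout, and BDKRB2 is the highest under both.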

How the data were processed

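For each of the 14 samples the authors deposited raw counts, whole numbers of ribosome footprints for every gene symbol. The submitters' processing notes name TopHat2 2.1.0, Bowtie2 2.2.6 and cutadapt 4.1, with hg38 as the build. Annotation, strand and removal of duplicates are not stated in the sources used here; intervals cover counting error only. Rows naming no gene entered neither the library sizes nor the tests.

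All 14 libraries entered 1 fit in edgeR 4.0.16 (R 4.3.3) with a mean per line and fraction, TMM, filterByExpr and a robust quasi-likelihood test, adjusted by Benjamini-Hochberg over 9458 genes at 0.05. The steps were tested on simulated data. The receptors, lists and tests were chosen with earlier results of these data known. Receptors given in full were the 5 largest and 5 smallest mean changes; up to 3 genes of at least 10 CPM were named per comparison list, and LPAR2, CXCR4 and others were added after their values were seen. Alternatives were DESeq2 1.42.0, other scalings and filters, a replicate block, each line alone, no bait messages, each library left out and, added after seeing the data, the mean of EMC7 and EMC10.

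An IP and its input carry one replicate number, which the labels call a batch, and each IP came from its input, so the numbers pair them. Their deviations from group means correlated at 0.272 (EMC6), 0.0744 (EMC7) and 0.0411 to 0.0951 (EMC10). Replicates correlated at 0.911 to 0.987 and every pair differed by more than sampling noise (chi-square over its degrees of freedom 1.92 to 8.45). Nothing in the labels says that replicates came from separate cultures: p-values reflect the spread among these libraries, possibly technical. Positions are RefSeq's for GRCh38.p14; all 39 symbols matched. Protein sequences and coding lengths were not used here, so levels are not compared between genes, apart from the rank correlation of input CPM with change.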

Additional observations from a re-analysis of the deposited data

How the results depend on the processing

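Over the mean of the 3 lines, the count of receptors that rose was within 1.5 times of the reported 20 under every alternative run. With library size alone 12 rose with EMC6, 13 with EMC7 and 10 with EMC10, 1 was called for EMC6 against EMC10, and S1PR3 turned to -0.0048. The median changes were then 1.47 (EMC6), 1.07 (EMC7), 0.53 (EMC10) and 1.00 (mean). With scaling on ER luminal proteins the medians were 1.83, 1.33, 1.24 and 1.45, and 6 receptors were called in the inputs. Under that scaling 12 rose with EMC6, 18 with EMC7 and 17 with EMC10. The EMC6 median was 2.30 with DESeq2, 1.95 with the filter on inputs alone and 2.14 with the replicate block, which changed no call among the 20 receptors over the mean of the lines, with EMC7 or with EMC10. The EMC7 median was 1.99 with the filter of 20 counts and 1.97 with that on inputs. The cause of these shifts was not tested, apart from the tested set, which changes with a filter and with a left-out library (20 to 24 receptors). The counts risen below cover all receptors that a fit tested. Receptors added by a fit can offset losses among the 20. Leaving out 1 library at a time gave medians of 1.85 to 2.86 (EMC6), 1.74 to 2.08 (EMC7), 1.50 to 1.69 (EMC10) and 1.83 to 2.07 (mean), 10 to 18, 16 to 20, 17 to 20 and 20 to 23 receptors risen, 6 to 10 called in the inputs, 0 to 1 for EMC6 against EMC7 and 0 to 3 for EMC6 against EMC10. Without the EMC6 line 20 of 20 rose, with a median of 1.86. The EMC6 line had the fewest counts, and receptors under 20 counts have no value. A planned description of amino-terminal tails and first segments needs protein sequences and was not run.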
